A study of Rattus norvegicus with 9 samples.

Results

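The comparison of an Nfe2l1 adenovirus with a GFP adenovirus in neonatal rat ventricular myocytes rests on 6 of the 9 libraries of the series, 3 for each virus, and on all genes with enough counts to be tested (14151 of 28935 in the count table). Its members were taken from the labels alone, by the virus each library names. The cells were primary heart muscle cells from Sprague-Dawley rat pups aged 1 to 2 days. Both groups were kept for 48 h in medium with 3% fetal bovine serum. The wells, of 12-well plates, then received 8 µL of adenovirus in 1 mL of serum-free medium for 48 h, so that the GFP controls also carried a virus and lacked serum. The 3 libraries of an Nfya adenovirus, handled in the same way, entered the same fit and its estimate of spread, and served as a second virus to compare with. The labels do not say which species' Nfe2l1 the virus carries, or how many cells it reached. As separate cultures are not named for the replicates either, each p-value reflects library-to-library spread alone, and that spread may be technical.

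NFE2L1 is a basic leucine zipper transcription factor of the cap'n'collar (CNC) family. It is made as a glycoprotein of the endoplasmic reticulum, retrotranslocated, deglycosylated and cleaved, and then enters the nucleus, where it pairs with a small Maf protein at antioxidant response elements. It is best known for raising proteasome genes when proteasome activity falls, and it shares its binding element with NFE2L2, the regulator of antioxidant and detoxifying enzymes. In heart muscle, protein turnover and redox balance are among the processes tied to its activity.

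The core of the antioxidant response element is written here as TGACNNNGC, and a strict form as TGACTCAGC. The strict form holds the AP-1 site TGACTCA within it, so each match to it is also an AP-1 site, while an AP-1 site need not match it. RefSeq promoters of the rat build GRCr8, from 250 bases before to 50 bases after a gene's start, were searched on both strands, and 10260 tested genes had one. Of all 27457 promoters in the table, 12.2% held the core and 0.412% the strict form. The following windows are shown because they are the matches to the strict form, before the start, in genes that were called higher by at least 2-fold. A gene is called where edgeR's quasi-likelihood test gave a Benjamini-Hochberg adjusted p below 0.05. Each is written 5′ to 3′ on the gene's strand with the match in capitals, and GCTGAGTCA is the strict form read on the other strand. All of these genes, Tmem37 included, were chosen by their values in these data.
Sprr1a (chr2:180752720-180752820, minus strand): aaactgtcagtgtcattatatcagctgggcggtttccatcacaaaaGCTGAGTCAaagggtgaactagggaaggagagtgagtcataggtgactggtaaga
Entpd2 (chr3:28611569-28611669, plus strand): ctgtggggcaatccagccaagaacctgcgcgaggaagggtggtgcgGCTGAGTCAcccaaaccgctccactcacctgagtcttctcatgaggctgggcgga
Procr (chr3:164714477-164714564, plus strand): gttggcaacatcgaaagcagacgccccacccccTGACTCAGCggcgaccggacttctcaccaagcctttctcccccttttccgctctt
Ucn2 (chr8:118515896-118515996, plus strand): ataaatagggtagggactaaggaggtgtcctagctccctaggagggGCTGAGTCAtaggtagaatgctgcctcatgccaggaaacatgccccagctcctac
Tmem37 (chr13:33743644-33743744, minus strand): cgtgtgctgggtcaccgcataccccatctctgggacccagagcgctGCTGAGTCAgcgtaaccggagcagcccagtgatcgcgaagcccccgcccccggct
Tor3a (chr13:71348694-71348794, minus strand): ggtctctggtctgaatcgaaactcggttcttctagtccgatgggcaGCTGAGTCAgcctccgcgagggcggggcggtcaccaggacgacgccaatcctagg

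Next come windows around the core in the promoters of 3 proteasome genes that were called higher, shown because the proteasome is the best known target of NFE2L1. Adrm1 encodes a ubiquitin receptor of the proteasome, Psmb2 a subunit of its catalytic core and Psmd1 a scaffold of its regulatory particle.
Adrm1 (chr3:187642801-187642901, plus strand): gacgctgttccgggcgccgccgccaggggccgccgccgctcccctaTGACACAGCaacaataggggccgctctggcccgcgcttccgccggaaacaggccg
Psmb2 (chr5:144254944-144255044, plus strand): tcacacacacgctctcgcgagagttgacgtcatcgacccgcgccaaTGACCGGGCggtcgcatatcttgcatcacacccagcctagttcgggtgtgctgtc
Psmd1 (chr9:94157760-94157860, plus strand): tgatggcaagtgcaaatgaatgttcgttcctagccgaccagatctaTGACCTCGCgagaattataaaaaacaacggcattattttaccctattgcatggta

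The matches above lay between 68 and 217 bases before the gene's start. Levels are given as CPM, counts relative to the library's total after scaling by trimmed means. Tmem37, a calcium channel subunit homologue, stood at 1.23, 1.03 and 1.95 CPM in GFP replicates 1 to 3 and at 18.0, 18.8 and 17.9 CPM in the Nfe2l1 replicates (log2 fold change 3.71 ± 0.29 SE, edgeR quasi-likelihood adjusted p = 4.2e-10). Procr, the endothelial protein C receptor, went from a mean of 9.18 to 28.9 CPM. Tor3a, a torsin ATPase, went from 13 to 26.8 CPM, and Entpd2, a cell surface nucleotidase, from 0.529 to 3.92 CPM. Sprr1a, a cornified envelope protein, and Ucn2, a peptide hormone of the urocortin family, had 1 and 2 counts over the GFP group. Their count ratios were 34.8 (95% exact interval 5.87 to 1410) and 22.1 (5.79 to 188). They were picked for being called and at least 2-fold higher than in the GFP libraries, as 7.14% of all genes tested were.

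Of all genes tested, 28.9% were called higher and 29.7% lower. Across the 10260 with a promoter, the core stood in the promoters of 17.3% of genes called higher (534 of 3083), 13.4% of genes called lower (420 of 3128) and 14.1% of genes not called (572 of 4049). Among genes higher by at least 2-fold the share was 15.3%. The proteasome list held it in 8 of 37 promoters (21.6%, 95% interval 11.4% to 37.2%), against 14.9% over all tested genes with a promoter. Other lists searched ran from 8.82% (kinesins and dyneins outside mitosis, 3 of 34) to 30.8% (NADPH supply, 4 of 13). The list of glutathione, thioredoxin and peroxide removal had 22.2% (8 of 36). The strict form stood in 0.746% of promoters of genes called higher (23), 0.224% of those called lower (7) and 0.247% of those not called (10). Restricted to the 100 bases before and 50 after the start, the core gave 10.3% and 6.78% for genes called higher and lower, but the strict form 0.162% and 0.16%. These are counts of letters in a window and not sites of binding.

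Library totals lay between 5712123 and 7310774 counts over the 9 libraries, and the genes tested held 99.8% of the counts. Within a group, libraries correlated at 0.9907 to 0.9918 (log2 CPM across genes), against 0.9381 to 0.9412 between GFP and Nfe2l1 libraries. In both groups the first and second libraries differed least, with a chi-square per gene of 1.06 and 1.12 where counting noise alone gives about 1. The densest coverage among the genes named here was 1.45 counts per base of gene length, in Tnnt2. For 708 genes above 0.5 counts per base, whose fold changes may be understated, the handling of duplicate reads is not given in the sources used here. The Nfe2l1 transcript itself did not separate the groups. It stood at 242, 234 and 246 CPM in the GFP libraries and at 241, 245 and 233 CPM in the libraries labelled Nfe2l1 (log2 fold change -0.01 ± 0.03, edgeR adjusted p = 0.86). The counts thus do not show the transgene, and the groups are named by their labels below.

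The groups differed widely all the same. At an edgeR adjusted p below 0.05, 4095 genes (28.9% of those tested) were called higher with the Nfe2l1 virus and 4202 (29.7%) lower, and for 9063 (64.0%) the 3 libraries of one group lay wholly above those of the other. Most differences were small: over called genes, the absolute log2 fold change had a median of 0.41, and 59.1% of genes called higher and 66.6% of those called lower changed by less than 1.5-fold. Those called and at least 2-fold higher numbered 1010 (7.14%), and 717 (5.07%) were at least 2-fold lower. The median over all genes tested was -0.01. Any list's counts are therefore read against 28.9% and 29.7%. Directly against the Nfya libraries, 3597 genes (25.4%) were called higher with the Nfe2l1 virus and 3561 (25.2%) lower. Between the Nfya and GFP libraries, 3433 genes (24.3%) were higher and 3953 (27.9%) lower. These comparisons share libraries, so each is given by its own values.

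**Figure D1:**
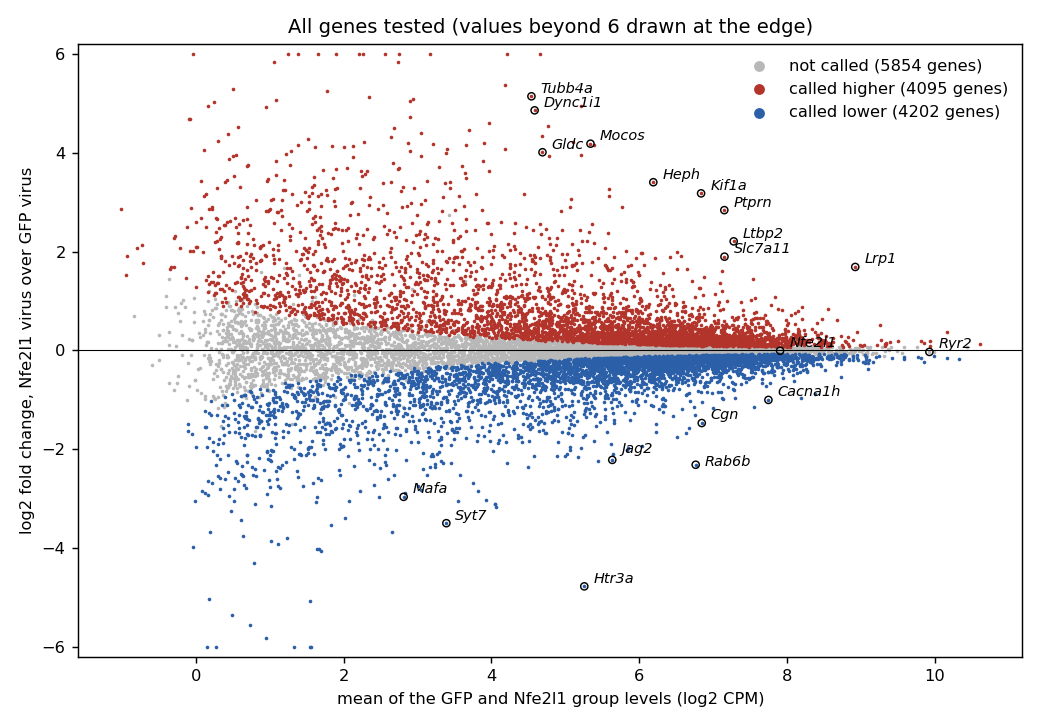
Log2 fold change of each of the 14151 genes tested (Nfe2l1 over GFP virus) against the mean of the 2 group levels in log2 CPM, with genes called higher in red, lower in blue and uncalled in grey. Kif1a, Heph and Ptprn lie far above the bulk of the genes at their level, Htr3a and Syt7 lie far below it, and Nfe2l1 lies at 0.

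Many of the largest rises were of genes at a few CPM in the GFP libraries, and genes of microtubule transport were among them. Kif1a, a kinesin that carries synaptic vesicle precursors, stood at 23.1, 24.2 and 20.7 CPM in the GFP libraries and at 196, 209 and 214 CPM in the Nfe2l1 libraries. It was 9.05-fold higher (log2 fold change 3.18 ± 0.07, edgeR adjusted p = 1.5e-15). Kif5c, a conventional kinesin heavy chain, read 3.37, 2.22 and 1.59 CPM with GFP and 47.6, 48.9 and 50.7 CPM with Nfe2l1, and was 20.1-fold higher. For Dync1i1, an intermediate chain of cytoplasmic dynein, the levels were 1.38, 1.33 and 2.12 CPM against 44.2, 46.7 and 48.3 CPM, 29.0-fold higher. Each of these sets of libraries was far apart, and each gene was also higher than in the Nfya libraries, with log2 differences of 2.5, 3.10 and 3.73.

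The tubulin that rose most was Tubb4a, from 1.84, 1.03 and 0.885 CPM to 43.4, 46.1 and 46.5 CPM. Tubb3, a beta-tubulin typical of neurons, rose from 23.4, 25.9 and 21.6 CPM to 61.6, 64.4 and 65.4 CPM (log2 fold change 1.43 ± 0.08, edgeR adjusted p = 1.5e-11). Of 15 tubulins tested (20 listed), 6 were called higher and 2 lower. Among 42 kinesins and dyneins outside mitosis that were tested (45 listed), 19 were called higher and 7 lower, with a median log2 fold change of 0.10, and against the Nfya libraries 23 were higher and 3 lower. With scaling factors taken from sparsely covered genes 12 were called higher, and without GFP replicate 2 only 4 were lower. Dnah1, an axonemal dynein heavy chain, rose from 2.37 to 21.3 CPM, while the kinesins Kif26a (22 to 11 CPM) and Kif26b (43.6 to 20.4 CPM) fell. The symbol family Kif as a whole had no one direction, with 9 of 33 members higher and 12 lower.

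Of 13 Ift genes, which encode the intraflagellar transport particle and proteins of that name, 9 were called higher and 1 lower (median 0.34). Ift122 rose from 30.3, 34 and 28.8 CPM to 59.5, 58.6 and 65.3 CPM, with no overlap. Ift80 rose from 46.8 to 81.6 CPM, and Cfap69, a cilia and flagella associated protein, from 7.39 to 32.3 CPM. Among 14 Trappc genes, subunits of the tethering complexes of the early secretory pathway, 11 were called higher and 1 lower. Trappc9 stood at 51.9, 49.9 and 43.7 CPM with GFP and at 116, 121 and 128 CPM with Nfe2l1 (log2 fold change 1.32 ± 0.06, edgeR adjusted p = 3.4e-11).

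Ptprn, a transmembrane protein of dense-core secretory granules, was at 36.8, 37.5 and 29.5 CPM in the GFP libraries and at 248, 262 and 240 CPM in the Nfe2l1 libraries, 7.15-fold higher. Dnajc6, which uncoats clathrin vesicles, rose from 2.27 to 51.9 CPM. Yet of 53 synaptic vesicle and exocytosis genes tested, 14 were called higher and 21 lower, 10 of them by at least 2-fold. Syt7, a calcium sensor of exocytosis, fell from 17.5, 19.5 and 20.9 CPM to 2.18, 1.10 and 1.77 CPM (log2 fold change -3.50 ± 0.26, edgeR adjusted p = 6e-10). Syt11 rose from 77.4 to 127 CPM.

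The 15 largest rises were taken among genes with at least 20 CPM in the Nfe2l1 group and no overlap. They further include Padi3, a peptidylarginine deiminase (0.834 to 35.5 CPM), Adam23, a cell surface protein of the ADAM family (3.41 to 65.3 CPM), and Msln, a mesothelial surface protein (1.29 to 23.8 CPM). In the Nfya libraries Padi3, Adam23 and Msln had means of 2.63, 14.8 and 12.3 CPM. Among the genes tested, 6 had no count in the GFP libraries and at least 30 in the Nfe2l1 libraries. Against a floor of 3 counts over the GFP group, Kcne5, an accessory subunit of potassium channels, was at least 30.1-fold higher and Lce6a at least 12.2-fold higher. Itgax, an integrin chain of leukocytes, rose from 4.14, 5.17 and 4.07 CPM to 64.7, 73.2 and 71.7 CPM, and Rbm11, an RNA-binding protein, from 3.06, 3.40 and 3.72 CPM to 49.8, 53.3 and 51.8 CPM. Neither Itgax nor Rbm11 was at such levels in the Nfya libraries, where their means were 3.23 and 1.21 CPM.

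**Figure D2:**
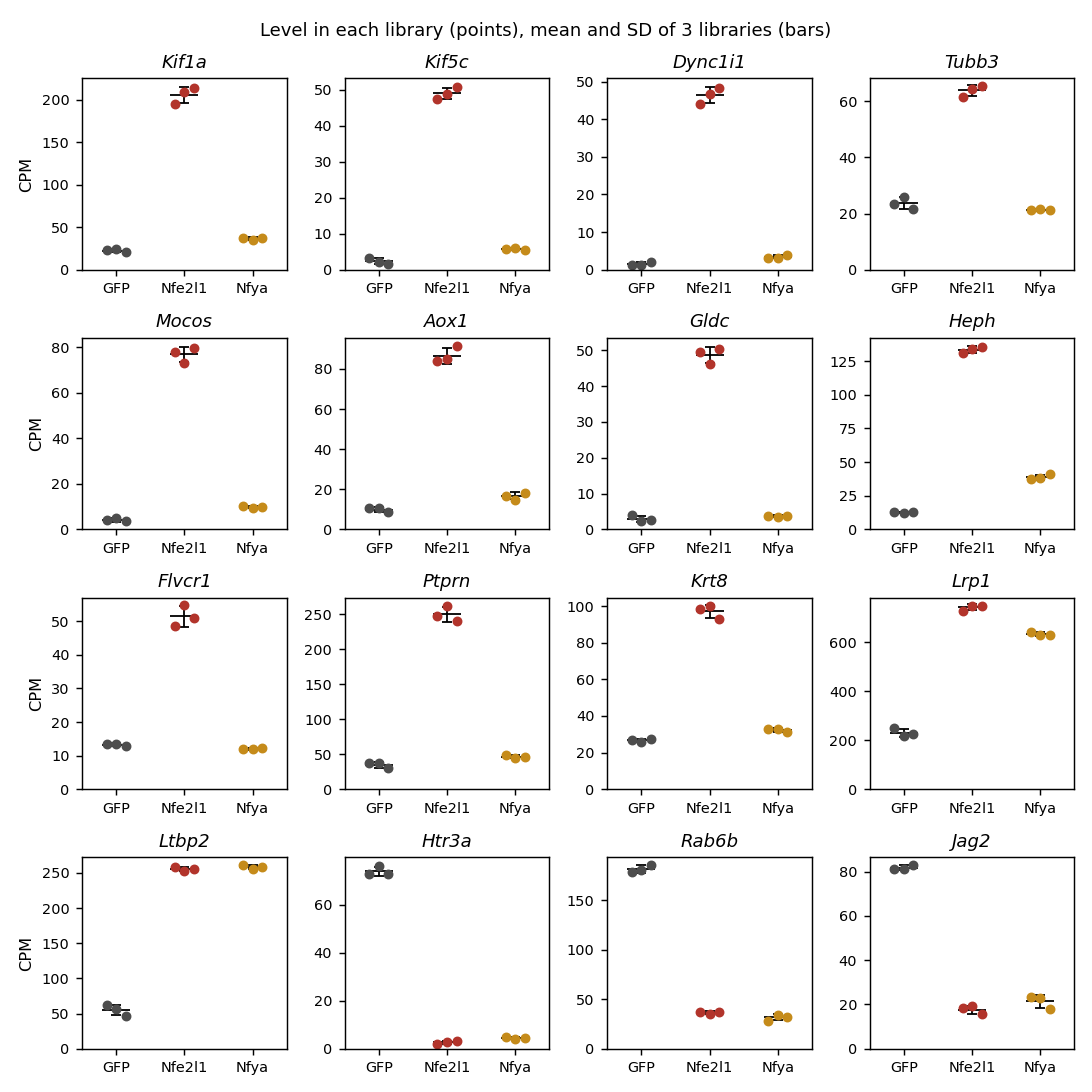
Level in CPM of 16 genes in each library of the GFP, Nfe2l1 and Nfya viruses (points), with the mean and SD of 3 libraries (bars). Kif1a, Mocos, Gldc, Flvcr1 and Krt8 are high in the Nfe2l1 libraries, Ltbp2 and Lrp1 are high with both Nfe2l1 and Nfya, and Htr3a, Rab6b and Jag2 are low with both.

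Protein turnover genes moved by small steps. Of 41 proteasome genes tested (43 listed), 34 were called higher and 0 lower, and against the Nfya libraries 37 were higher and 0 lower. The median log2 fold change was 0.25, and none reached 2-fold. As 22 of the 41 were above 0.5 counts per base, changes in them may be understated. Psmc5, an ATPase of the regulatory particle, stood at 106, 103 and 105 CPM with GFP and at 144, 143 and 133 CPM with Nfe2l1 (log2 fold change 0.42 ± 0.04, edgeR adjusted p = 1.2e-07). Psmb3, of the catalytic core, went from 59.4, 61.0 and 62.8 CPM to 84.6, 87.0 and 79.6 CPM. All 14 Psmd genes were called higher. The promoter windows shown above belong to genes of this size of change: Adrm1 rose from 107 to 125 CPM, Psmb2 from 57.8 to 72.6 CPM and Psmd1 from 292 to 339 CPM.

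The proteins that process NFE2L1 and those of endoplasmic reticulum degradation were called higher in 14 and lower in 2 of 27 tested (29 listed). Faf2, a membrane adaptor that recruits the segregase VCP, rose from 142, 146 and 137 CPM to 194, 195 and 200 CPM (log2 fold change 0.47 ± 0.04, edgeR adjusted p = 5e-09). Ufd1, a cofactor of VCP, rose from 107 to 139 CPM. The mannosidase-like Edem1 rose from 81.0 to 106 CPM, but did not differ from its level in the Nfya libraries beyond the spread (log2 difference 0.02, edgeR adjusted p = 0.72). Herpud1, a ubiquitin-like protein of the degradation complex, fell from 141 to 112 CPM.

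Among 39 autophagy genes tested (41 listed), 21 were called higher and 2 lower, and 24 were higher than in the Nfya libraries. With DESeq2 13 were called higher. Atg2a, a lipid transfer protein of the growing autophagosome, rose from 140, 140 and 131 CPM to 177, 177 and 189 CPM. Ulk1, the kinase that starts autophagy, rose from 110, 112 and 102 CPM to 133, 134 and 134 CPM. Tfeb, the factor that activates lysosomal genes, fell from 72.8 ± 1.63 (SD, n = 3) to 45.9 ± 5.18 CPM (log2 fold change -0.66 ± 0.06, edgeR adjusted p = 2.5e-07). Of 47 lysosomal genes, 22 were called higher and 6 lower. Ctsf, a cathepsin, rose from 72.5, 71.4 and 67.4 CPM to 106, 108 and 106 CPM. The proton pump of lysosomes had 10 of 21 subunits called higher and 3 lower, with 14 higher than in the Nfya libraries. Of 36 cytosolic heat shock genes, 13 were called lower (36.1%, against 29.7% of all genes tested) and 6 higher. Their median log2 fold change was -0.07, and DESeq2 called 8 lower. Hspa4l fell from 66.7 to 26.6 CPM.

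**Figure D3:**
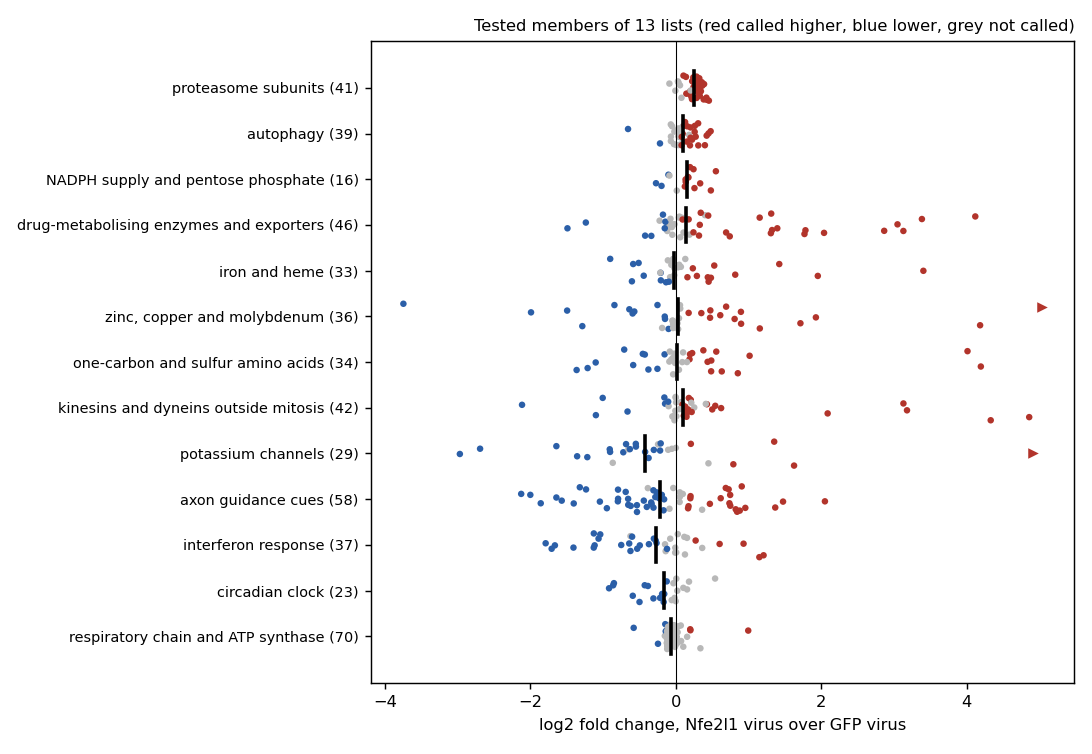
Log2 fold change (Nfe2l1 over GFP virus) of every tested member of 13 lists, with genes called higher in red, lower in blue and uncalled in grey, the list's median as a bar, and triangles for the lower bound of genes with no GFP count. Proteasome members cluster just above 0, while the drug-metabolising, metal and one-carbon lists spread widely and reach farther above 0 than below it.

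Of 42 tested genes of glutathione, thioredoxin and peroxide removal (47 listed), 18 were called higher and 10 lower, or 6 lower without Nfe2l1 replicate 3. Glrx, a glutaredoxin, rose from 17.0, 18.0 and 16.6 CPM to 42.0, 43.3 and 43.1 CPM (log2 fold change 1.31 ± 0.09, edgeR adjusted p = 9.4e-11). Gpx2, a glutathione peroxidase, rose from 1.23, 0.887 and 0.885 CPM to 17.7, 14.7 and 14.2 CPM, and was lowest in the Nfya libraries, at a mean of 0.302 CPM. Slc7a11, the cystine transporter, was 3.72-fold higher. Gclc, the catalytic subunit of the enzyme that begins glutathione synthesis, fell instead from 245, 240 and 255 CPM to 185, 183 and 180 CPM. Some well known NFE2L2 targets, named after their values were seen, did not rise: Hmox1 went from 160 to 155 CPM, Nqo1 from 134 to 128 CPM and Txnrd1 from 333 to 287 CPM, with edgeR adjusted p of 0.41, 0.28 and 0.00024. Nfe2l2 itself read 186 and 183 CPM and was not called.

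Enzymes that supply NADPH, the reductant behind these systems, were called higher in 11 and lower in 3 of 16 tested (17 listed), none by 2-fold. Scaling by sparsely covered genes left 7 called higher. Nadk, the cytosolic NAD kinase, rose from 107, 107 and 111 CPM to 155, 159 and 159 CPM, and Taldo1, of the pentose phosphate pathway, from 88.7 to 106 CPM. Nadk2, the mitochondrial NAD kinase, fell from 129 to 112 CPM.

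The drug-metabolising enzymes and exporters showed larger changes. Of 46 tested (65 listed), 22 were called higher, 13 of them by at least 2-fold, and 7 lower, or 4 lower without Nfe2l1 replicate 3. Aox1, an aldehyde oxidase, rose from 10.6, 10.5 and 8.49 CPM to 83.8, 85.0 and 91.2 CPM, 8.74-fold higher (edgeR adjusted p = 7.8e-14). Cbr3, a carbonyl reductase, rose from 6.33 to 26.2 CPM. The cytochromes Cyp1a1 (18.5 to 64.1 CPM) and Cyp1b1 (57.8 to 152 CPM), targets of the aryl hydrocarbon receptor, rose as well, and the Nfya libraries held means of 65.2 and 171 CPM of them. Of 14 tested genes with Akr symbols, mostly aldo-keto reductases, 10 were called higher and 1 lower (median 1.08). The one that fell was Akr7a3, from 25.1 to 8.87 CPM.

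Aox1 and Xdh, the xanthine dehydrogenase, are enzymes with a molybdenum cofactor, and both rose together with Mocos, the sulfurase that completes that cofactor for them. Mocos stood at 3.98, 5.02 and 3.54 CPM with GFP and at 77.9, 73.2 and 79.5 CPM with Nfe2l1, 18.2-fold higher (log2 fold change 4.18 ± 0.17, edgeR adjusted p = 1.2e-14). Xdh rose from 27.3, 35.2 and 29.2 CPM to 64.1, 67.9 and 72.3 CPM. All 3 were also higher than in the Nfya libraries, with log2 differences of 2.95 for Mocos, 2.38 for Aox1 and 0.76 for Xdh. Mocs1, which begins the synthesis of the cofactor and was named after its values were seen, rose from 22.9 to 42.4 CPM. The list of zinc, copper and molybdenum genes as a whole had 14 of 36 members called higher and 12 lower. Among zinc importers, Slc39a8 rose from 9.58 to 36.3 CPM and Slc39a6 from 99.6 to 175 CPM, while Slc39a10 fell from 172 to 95.8 CPM. Atp7b, a copper pump, fell from 49.5 to 17.7 CPM, and Mt3, a metallothionein with no GFP count, was at 5.29, 5.02 and 5.32 CPM.

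Of 33 iron and heme genes tested, 11 (33.3%) were called higher and 9 (27.3%) lower. These shares lay near those over all genes tested, 28.9% and 29.7%. Heph, a ferroxidase of iron export, rose from 12.7, 12.1 and 13.1 CPM to 131, 134 and 136 CPM (log2 fold change 3.40 ± 0.10, edgeR adjusted p = 1.1e-15), and the Nfya libraries had a mean of 38.8 CPM. Flvcr1, a plasma membrane transporter described as a heme exporter, rose from 13.5, 13.4 and 12.9 CPM to 48.7, 54.9 and 51.0 CPM. It stayed at 12.1 CPM in the Nfya libraries. Blvrb, a biliverdin reductase, rose 1.40-fold. The importer Slc39a14 fell from 161 to 119 CPM.

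In one-carbon and sulfur amino acid metabolism, 13 of 34 tested genes were called higher and 10 lower. The rises reached farther, as log2 fold changes ran from -1.365 to 4.192. Gldc, of the glycine cleavage system, rose from 3.98, 2.36 and 2.65 CPM to 49.4, 46.1 and 50.4 CPM, 16.1-fold higher. Mat1a, which makes S-adenosylmethionine in liver, rose from 3.83, 5.02 and 4.42 CPM to 75.4, 81.0 and 81.0 CPM (log2 fold change 4.15 ± 0.16, edgeR adjusted p = 8.4e-14). Aldh1l1, which removes formyl groups from folate, rose from 1.53 to 28.3 CPM. Among folate enzymes, Shmt1 fell from 56.8, 52.3 and 52.0 CPM to 22.9, 25.2 and 21.7 CPM, and the mitochondrial Mthfd1l from 89.0, 92.6 and 77.7 CPM to 37.3, 41.2 and 42.5 CPM. Against the Nfya libraries Gldc and Mat1a were higher and Shmt1 and Mthfd1l lower, each past the threshold.

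The partners and relatives of NFE2L1 itself moved less. Of 15 tested CNC, Bach and small Maf genes and their regulators, 5 were called higher and 4 lower. Maff, a small Maf protein, rose from 40.8, 42.1 and 36.8 CPM to 61.3, 63.3 and 65.0 CPM (log2 fold change 0.66 ± 0.07, edgeR adjusted p = 3.7e-08). Keap1, which holds NFE2L2 for degradation, rose from 116 to 138 CPM, and Bach2, a CNC repressor, from 29.4 to 50.6 CPM. Mafa, a large Maf factor, fell from 13, 12.6 and 11.9 CPM to 0.933, 1.57 and 2.18 CPM.

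**Figure D4:**
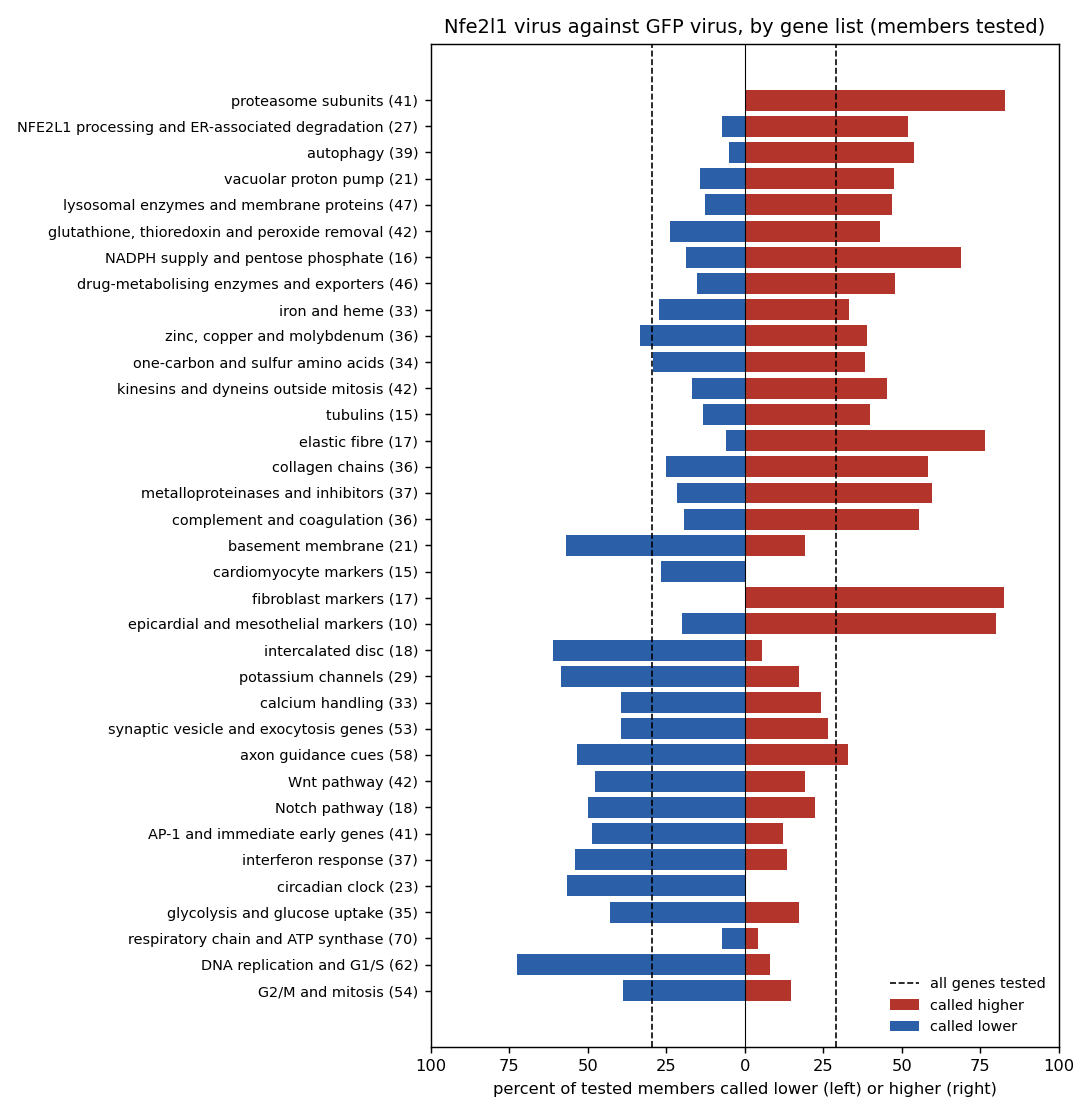
Share of the tested members of 35 gene lists called lower (left, blue) or higher (right, red) with the Nfe2l1 virus, with dashed lines at the shares over all genes tested, 29.7% on the left and 28.9% on the right. Proteasome, fibroblast and epicardial lists lie farthest to the right, DNA replication lies farthest to the left, and the respiratory chain is short on both sides.

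In the elastic fibre list 13 of 17 tested genes were called higher, 8 by at least 2-fold, and 1 lower (median 0.84), whereas 3 were higher and 10 lower than in the Nfya libraries. Ltbp2, which binds elastic microfibrils, stood at 61.9, 56.3 and 46.9 CPM with GFP and at 258, 253 and 256 CPM with Nfe2l1. It was 4.62-fold higher, and the Nfya libraries had a mean of 258 CPM (log2 difference -0.01, edgeR adjusted p = 0.79). Fbln2, a fibulin, rose from 52.6, 45.5 and 46 CPM to 152, 153 and 149 CPM. Of 36 collagen chains, 21 were called higher and 9 lower than in GFP, whereas 2 were higher and 21 lower than in the Nfya libraries. Col5a3 rose from 35.5, 36.5 and 38.2 CPM to 141, 148 and 150 CPM. Metalloproteinases and their inhibitors were called higher in 22 and lower in 8 of 37. Mmp19 rose from 12.7 to 67.6 CPM and Adamts8 fell from 104 to 27.3 CPM.

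Of 21 basement membrane genes, 12 were called lower and 4 higher. Fras1, a protein of the epithelial basement membrane, fell from 143, 140 and 141 CPM to 37.8, 46.4 and 41.5 CPM, and its partner Frem2 from 155 to 62.5 CPM. Lrp1, an endocytic receptor of proteases and lipoproteins, gained the most in mean CPM of all genes called, from 248, 217 and 226 CPM to 728, 748 and 749 CPM (log2 fold change 1.69 ± 0.04, edgeR adjusted p = 2.2e-14). Abca1, the cholesterol exporter, rose from 108, 100 and 92.9 CPM to 262, 278 and 281 CPM, and was at 303 CPM in the Nfya libraries.

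Markers of other cell types moved with these genes. In bulk RNA, more cells of a type and more RNA per cell cannot be told apart. Of 17 fibroblast markers, 14 were called higher and 0 lower, and their summed level went from 1319 to 1391 CPM in the GFP libraries to 1963 to 2089 CPM in the Nfe2l1 libraries. Ddr2, Dcn, Tcf21 and Pdgfra were all called higher; Dcn read 46.7, 45.8 and 49.7 CPM with GFP and 86.6, 91.9 and 87.3 CPM with Nfe2l1. The 10 epicardial and mesothelial markers had 8 called higher and 2 lower, with sums of 184 to 196 and 301 to 315 CPM. Endothelial markers (8 of 14 higher, 3 lower) summed to 356 to 377 and 513 to 552 CPM, although Kdr fell from 163 to 90.0 CPM while Cdh5 rose from 12.0 to 26.0 CPM. Schwann and neural markers (6 of 10 higher, 2 lower) summed to 168 to 177 and 237 to 239 CPM. The macrophage and leukocyte sums were 84.6 to 108 and 122 to 136 CPM, with 4 of 10 higher and 1 lower. Of 13 smooth muscle and pericyte markers, 7 fell and 2 rose, and their sums went from 1911 to 1957 down to 1578 to 1642 CPM. The defining markers did not fall with them: Pdgfrb was called higher (log2 fold change 0.81) and Myh11 was not called (0.035). Against GFP, median log2 fold changes with Nfe2l1 and Nfya were 0.92 and 1.19 for fibroblast and 0.76 and 0.89 for endothelial markers. They were 1.51 and 0.93 for epicardial and 0.575 and 0.183 for Schwann markers. For macrophage markers they were 0.53 and 0.61, and for smooth muscle markers -0.17 and 0.14. Of the fibroblast markers, 12 were lower and 0 higher than in the Nfya libraries. Of the defining markers, Rgs5, Sox10 and Hbb did not pass the filter, and Pecam1 is not analysed here. The part of these cells in the matrix, complement and epithelial changes was not tested.

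For the cardiomyocyte markers, 13 of the 15 tested were above 0.5 counts per base, so that changes in them may be understated. Their sums overlapped, at 4357 to 4836 CPM with GFP and 4155 to 4599 CPM with Nfe2l1, and 4 of 15 were called lower, 2 without GFP replicate 3 or without Nfe2l1 replicate 1, and 0 without Nfe2l1 replicate 3. Ryr2, the calcium release channel, read 960, 962 and 1033 CPM against 949, 999 and 943 CPM, and Myh6, Tnnt2 and Actc1 were likewise not called. The defining transcripts of heart muscle cells were thus present in both groups.

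**Figure D5:**
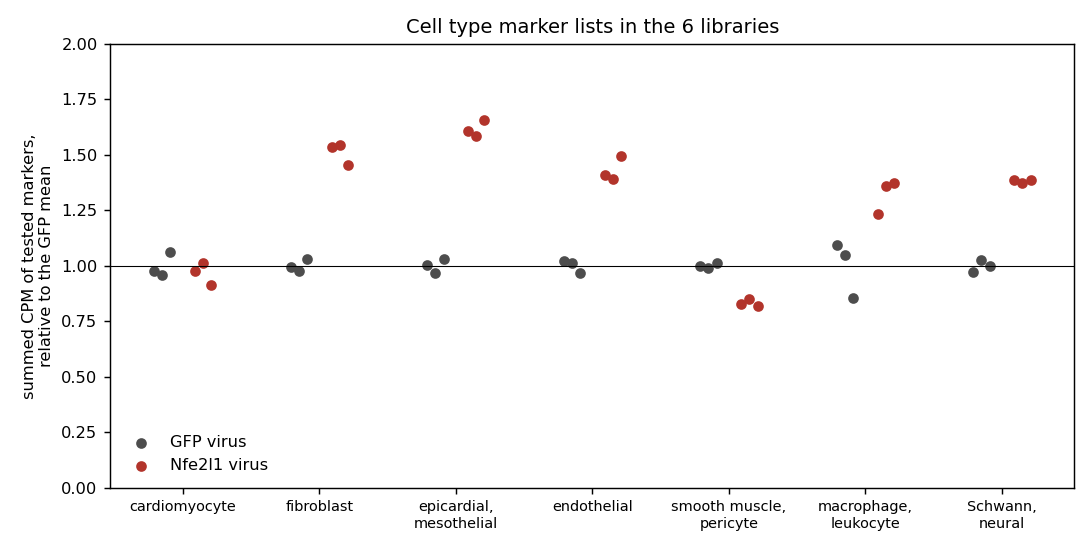
Summed CPM of the tested markers of 7 cell type lists in each GFP and Nfe2l1 library, divided by the mean of the GFP libraries. The cardiomyocyte sums overlap between the viruses, the fibroblast and epicardial sums are higher in all 3 Nfe2l1 libraries, and the smooth muscle and pericyte sums are lower.

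Epithelial genes changed in both directions, while complement and coagulation genes were more often called higher than lower. Krt8, a keratin of simple epithelia, rose from 26.7 ± 0.767 (SD, n = 3) to 97.2 ± 3.63 CPM (log2 fold change 1.86 ± 0.07, edgeR adjusted p = 1.4e-13), while Krt18, with which it forms filaments, fell from 69.3, 70.5 and 81.2 CPM to 44.3, 42.5 and 41.7 CPM. Krt8 was also higher than in the Nfya libraries, and for Krt18 the difference did not pass the threshold (log2 difference 0.07, edgeR adjusted p = 0.5). Of 42 cadherins, claudins and junction genes, 20 were called higher and 14 lower. Celsr1, an atypical cadherin outside that list, fell from a mean of 260.3 to 117 CPM. Complement and coagulation genes were called higher in 20 and lower in 7 of 36. C1r and C1s, proteases that start the classical pathway, rose 2.40-fold and 3.16-fold, and differed from the Nfya libraries by log2 differences of -0.03 and -0.21. Among inflammatory mediators, 16 of 38 were higher and 10 lower: the chemokine Ccl2 rose from 15.3, 17.3 and 15.2 CPM to 55.0, 53.1 and 48.8 CPM, and Cx3cl1 fell from 94.4, 96.3 and 83.5 CPM to 23.3, 23.0 and 23.9 CPM.

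The 15 largest falls spanned 4.43-fold to 27.4-fold. Set directly against the Nfya libraries, 9 were lower with Nfe2l1, 1 was higher and 5 were not called. Their choice by the same Nfe2l1 libraries favours lower calls here. Levels were low in the Nfya libraries too, with means of 4.39 CPM for Htr3a, 31.7 CPM for Rab6b, 5.01 CPM for Chst9 and 29.8 CPM for Neto2. Htr3a, a subunit of the serotonin-gated ion channel, fell from 72.6, 75.9 and 72.9 CPM to 2.02, 2.82 and 3.14 CPM (log2 fold change -4.77 ± 0.20, edgeR adjusted p = 7.1e-15). Rab6b, a Golgi GTPase, fell from 178, 181 and 185 CPM to 37.5, 34.6 and 37.0 CPM. Chst9, a sulfotransferase, fell from 29.9 to 3.39 CPM, and Neto2, an auxiliary protein of glutamate receptors, from 71.9 to 15 CPM. Cspg4, the NG2 proteoglycan of pericytes, lost the most in mean CPM of all genes called, from 431, 424 and 443 CPM to 223, 246 and 237 CPM.

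Of 29 potassium channel genes tested (38 listed), 17 were called lower and 5 higher (median -0.42). Kcnd3, a channel of the transient outward current, fell from 93.5, 91.0 and 85.5 CPM to 48.5, 47.5 and 48.0 CPM, and Kcnn1, a calcium-activated channel, from 56.5, 56.4 and 54.8 CPM to 22.1, 19.0 and 24.1 CPM. For neither did the difference from the Nfya libraries pass the threshold. Among 10 Kcnj genes, inward rectifiers, 5 were lower and 0 higher. Sodium, pacemaker and chloride channels and the sodium pump had no one direction, with 14 of 33 called higher and 15 lower, 6 by at least 2-fold each way. Scn4b, a sodium channel subunit, fell from 53.2, 55.6 and 50.1 CPM to 11.2, 12.1 and 13.6 CPM. The T-type calcium channel gene Cacna1h fell from 284, 287 and 290 CPM to 136, 148 and 146 CPM. In the calcium handling list 13 of 33 were called lower and 8 higher (4 higher when scaled by sparsely covered genes). Camk2b, a calmodulin-dependent kinase, fell from 72.0 to 23.1 CPM, and Itpr3, an inositol trisphosphate receptor, rose from 34.5, 39.5 and 34.9 CPM to 126, 141 and 136 CPM. Of 18 intercalated disc genes, 11 were called lower and 1, the desmocollin Dsc2, higher. Gjc1, a connexin, fell from 84.6, 88.2 and 86.5 CPM to 52.6, 48.8 and 51.1 CPM.

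In the axon guidance list 31 of 58 tested genes were called lower and 19 higher, with Ephb3, an ephrin receptor, at a mean of 126 CPM with GFP and 50.4 CPM with Nfe2l1. Its opposite was Robo1, a Slit receptor, which rose from 25.4 to 65.7 CPM. The Notch pathway had 9 of 18 lower and 4 higher. Jag2, a Notch ligand, fell from 81.2, 81.1 and 83.0 CPM to 18.2, 19.1 and 15.7 CPM (log2 fold change -2.22 ± 0.09, edgeR adjusted p = 1.3e-12). Hes1 and Hey2, targets of Notch, fell from 53.8 to 42.0 CPM and from 58.8 to 43.4 CPM. In the Wnt pathway 20 of 42 were lower and 8 higher, or 4 higher among genes of at least 5 mean CPM. Sfrp1, a secreted Wnt antagonist, fell from 263 to 159 CPM.

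Of 41 AP-1 and immediate early genes, 20 were called lower and 5 higher. Their median log2 fold change against GFP was -0.118 with Nfe2l1 and -0.154 with Nfya. Compared with the Nfya libraries, 13 were lower and 6 higher. Fos, whose protein is part of AP-1, fell from 31.6, 30.3 and 33.4 CPM to 10.1, 10.3 and 13 CPM. In the interferon response 20 of 37 were lower, 9 by at least 2-fold, and 5 higher. The summed level of the list was 1382, 1755 and 1498 CPM in the GFP libraries and 1326, 1301 and 1331 CPM in the Nfe2l1 libraries. GFP replicate 1 thus lay closest to the Nfe2l1 libraries and GFP replicate 2 farthest from them, and without replicate 2 the calls were 17 lower and 6 higher. Ifit1 fell from 30.8, 41.5 and 32.4 CPM to 13.2, 13.8 and 12.7 CPM, while Ifit2, of the same family, rose from 25, 32.8 and 27.2 CPM to 64.7, 60.2 and 64.1 CPM. Both differences were also past the threshold against the Nfya libraries, with log2 differences of -0.66 and 0.36. The median log2 fold change of the interferon list against GFP was alike for the viruses, at -0.28 with Nfe2l1 and -0.27 with Nfya. Directly against the Nfya libraries, 14 of its members were lower and 5 higher. Of 23 clock genes, 13 were called lower and 0 higher (median -0.16). With Nfya their median against GFP was -0.185, and compared with the Nfya libraries 4 were lower and 6 higher. Per1, a clock repressor, fell from 74.2, 74.0 and 63.0 CPM to 46.6, 49.5 and 53.4 CPM, and Npas2, a partner of BMAL1, from 15.8 to 8.74 CPM. The labels give no clock time of collection.

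Of 62 DNA replication and G1/S genes, 45 were called lower and 5 higher than in GFP, and 50 lower and 2 higher than in the Nfya libraries. Mcm6, of the replicative helicase, fell from 181, 175 and 196 CPM to 110, 108 and 110 CPM (log2 fold change -0.74 ± 0.04, edgeR adjusted p = 6.5e-10). Among those that rose was Tk1, thymidine kinase, from 46.9 to 75.7 CPM. Genes of G2/M and mitosis were called lower in 21 and higher in 8 of 54 against GFP (5 higher without GFP replicate 3), but lower in 48 and higher in 2 against Nfya. Cdc20, Mki67, Foxm1 and Kif23 fell against GFP, with log2 fold changes of -0.616, -0.312, -0.426 and -0.695. Cdc25b, a phosphatase that activates mitotic kinases, rose instead, from 52.9 ± 3.62 (SD, n = 3) to 99.6 ± 3.43 CPM.

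Of 70 genes of the respiratory chain and ATP synthase, 62 were not called, 3 were higher and 5 lower (2 to 9 lower with 1 library left out). Of the 70, 46 were above 0.5 counts per base, so that changes in them may be understated. Uqcrq, a subunit of complex III, fell from 54.1 to 36.2 CPM. Glycolysis and glucose uptake genes were called lower in 15 and higher in 6 of 35; Slc16a3, a lactate exporter, fell from 112 to 64.2 CPM. For the 35 genes of the amino acid response driven by ATF4, of which 32 were tested, 15 were called lower and 4 higher (7 higher without Nfe2l1 replicate 3). Slc7a1, a transporter of basic amino acids, fell from 245, 244 and 239 CPM to 160, 159 and 166 CPM.

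Outside the hand-made lists lay 11769 of the tested genes, of which 3320 were called higher and 3469 lower. Grouped by the letters of the gene symbol, the families with the highest shares of members higher after Psmd (14 of 14) were Psmb (8 of 10), Trappc (11 of 14), Mmp (9 of 12), Akr (10 of 14) and Serpinb, protease inhibitors (7 of 10). Of 12 Abca transporters, 8 were higher and 2 lower. Abca4, a retinoid transporter, rose from 9.81, 11.8 and 8.67 CPM to 49.0, 46.2 and 51.8 CPM, and Abca2 from 197, 208 and 198 CPM to 320, 345 and 331 CPM, both also above the Nfya libraries. The family with the highest share lower was Mcm (8 of 10), followed by Chd, Inpp and Lrp (6 of 10 each), Itga, the integrin alpha chains (7 of 12), Sema, the semaphorins (11 of 19), and Zbtb, zinc finger factors with a BTB domain (21 of 38).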

How the data were processed

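RNA was sequenced from stranded mRNA libraries of adenovirus-infected neonatal rat ventricular myocytes. The deposited count table holds raw counts per gene. The authors also deposited RPKM values, and tables with log2 fold changes and log2 CPM, a likelihood ratio score, and p-values with adjusted p-values, per the file headers. The submitters' processing notes list, with no role for each, the builds GRCm38, mm10 and rn6 and the tools featureCounts 1.6.0, FastQC 0.11.4 and edgeR 3.20.5. Aligner, strand setting and treatment of duplicates: not given in the sources used here. Gene lengths were taken from the deposited RPKM table.

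The count analysis used edgeR 4.0.16 (R 4.3.3): filterByExpr, TMM scaling, and 1 quasi-likelihood fit over all 9 libraries, with direct contrasts between viruses and Benjamini-Hochberg adjustment over the 14151 genes tested. A called gene has an adjusted p below 0.05. The SE is the log2 fold change divided by the root of F, and not less than the counting error. Groups had 3 libraries each, from the labels, and totals of 5712123 to 7310774 counts. Intervals cover counting error only. The code was tested on simulated data.

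Named genes were the 15 largest rises and 15 largest falls without overlap and at least 20 CPM in the higher group, the 12 largest gains and losses in CPM, up to 4 called members per list in the direction with more calls and 2 in the other, and up to 3 per symbol family of at least 10 genes. Members and lists were chosen with earlier results of these data known. Of 2726 listed genes, 2652 were found and 2382 tested. Alternatives were DESeq2 1.42.0, other scalings, filters and thresholds, a replicate block, and leaving out libraries. The authors' deposited table was compared only for calls: 8017 genes were called in both, all in the same direction. Promoters are from RefSeq (GRCr8), matched by symbol.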

Additional observations from a re-analysis of the deposited data

How the results depend on the processing

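The counts of genes called higher (3217 to 4854) and lower (3048 to 4350) stayed within 1.5 times of 4095 and 4202 under every alternative run, and DESeq2 gave the fewest of both. Restricted to genes of at least 5 mean CPM, 465 instead of 717 were at least 2-fold lower, with fewer genes tested. Leaving out 1 library gave 3878 to 4092 higher, 3666 to 4056 lower, 1016 to 1117 at least 2-fold higher and 687 to 784 at least 2-fold lower. Leaving out both replicates 3, chosen after seeing the data, gave 3759 higher and 3771 lower. Same-numbered GFP and Nfe2l1 libraries did not deviate together (correlations 0.016, -0.028 and -0.065), so the numbers were not taken to pair them, and a replicate block gave 4040 higher and 4097 lower. Of 923 named genes called, 885 kept their call under every alternative in which they were tested, and none changed direction. Some were too low for the filter of at least 5 mean CPM and were not tested under it. Log2 fold changes of uncalled genes changed sign as follows. Nfe2l1 read 0.028 with no filter, 0.008 without GFP replicate 1 or 3, 0.005 and 0.027 without Nfe2l1 replicate 1 and 3, 0.005 with an assumed coverage ceiling and 0.03 without both replicates 3. Nfe2l2 read 0.012 with no filter, 0.01 without GFP replicate 3, 0.025 without Nfe2l1 replicate 3 and 0.047 without both. Ryr2 read 0.005, 0.004 and 0.02 with no filter, without GFP replicate 3 and without both. Actc1 read -0.012 with sparse scaling, and -0.019 and -0.021 without GFP or Nfe2l1 replicate 2. Tnnt2 read 0.014 without Nfe2l1 replicate 3, 0.007 with the ceiling and 0.037 without both. Without GFP replicate 3 Bach1 read 0.005 and Myh11 -0.034, and without Nfe2l1 replicate 3 Cul3 read 0.006. Without both, Bach1 read 0.003, Cul3 0.019, Myh6 0.012, Myh11 -0.019 and Csf1r -0.016. With 1 library left out, the values ranged from -0.022 to 0.027 for Nfe2l1, -0.035 to 0.025 for Nfe2l2, -0.056 to 0.004 for Ryr2, -0.021 to 0.074 for Actc1, -0.094 to 0.014 for Tnnt2, -0.088 to 0.005 for Bach1, -0.034 to 0.093 for Myh11 and -0.067 to 0.006 for Cul3. The cause of these changes was not tested. Sparse counts limit genes of a few CPM, and dense coverage may compress changes of abundant genes.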
